A study of Mus musculus with 10 samples.

Results

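Immediate early genes are transcribed within minutes of a stimulus and need no new protein synthesis first. Growth factor and stress kinases reach them through factors already bound at their promoters, the serum response factor at CArG boxes and CREB at cAMP response elements. Their products then switch on later genes or end the signal, and the transcripts decay quickly. Heat shock genes answer to misfolded protein instead, through heat shock factor at repeats of GAA and TTC. In the liver both responses are known from regeneration, ischaemia and toxic injury, and they can also start between death and freezing, so they are read as a sign of tissue handling.

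The 10 genes described here were picked by name for that use: Fos, Fosb, Jun, Junb, Egr1, Atf3, Ier2, Dusp1, Zfp36 and Hspa1b. They are 10 of 55385 gene IDs in the deposited tables, and 9 of the 12872 genes with enough counts to test, since Fosb fell below the count filter. The series compared 5 liver libraries labelled Alk1-HEC-KO with 5 libraries labelled Control, all from frozen, homogenised whole mouse liver sequenced on the BGISeq-500. Alk1 is another name of Acvrl1, an endothelial receptor for bone morphogenetic proteins, and the labels spell out neither HEC nor the Cre line. Strain, age, sex and any treatment are not given in the sources used here, and nothing says that a group's libraries are separate animals. The p-values therefore measure the spread among these libraries, which may be technical.

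Acvrl1, the gene named in the label, was not lower in the labelled knockout. It averaged 1.36 ± 0.331 TPM (a level scaled by transcript length and to the same sum in every library) in the labelled knockout libraries and 0.669 ± 0.331 TPM in controls (SD, n = 5 each). All 5 labelled knockout libraries lay above all 5 controls in TPM, while the groups overlapped in the scaled counts that the fit uses. The log2 fold change was 0.99 (SE 0.32, edgeR quasi-likelihood test, adjusted p = 0.336). The group is therefore called the labelled knockout throughout. Library totals ran from 20907368 to 21556462 counts. Hepatocyte markers were abundant in all libraries, at a summed 45976 to 83645 TPM in the labelled knockout and 46677 to 78445 TPM in controls. Because the tissue is bulk, fewer responding cells and less RNA per cell cannot be told apart.

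The promoters of 4 members are shown because they carry the classical elements through which this response is known to start. Each covers 250 bases before to 50 bases after the RefSeq start, from RefSeq on GRCm38.p6, read 5′ to 3′ on the gene's strand. For Fos (chr12:85473640-85473939, plus strand) capitals mark both copies of TGACG, the core of a cAMP response element, and the TATA box. For Dusp1 (chr17:26508423-26508722, minus strand) they mark the full cAMP response element TGACGTCA. For Zfp36 (chr7:28379179-28379478, minus strand) they mark a CArG box, the binding letters of the serum response factor. For Hspa1b (chr17:34959189-34959488, minus strand) they mark GAANNTTC, a pair of heat shock units.
Fos: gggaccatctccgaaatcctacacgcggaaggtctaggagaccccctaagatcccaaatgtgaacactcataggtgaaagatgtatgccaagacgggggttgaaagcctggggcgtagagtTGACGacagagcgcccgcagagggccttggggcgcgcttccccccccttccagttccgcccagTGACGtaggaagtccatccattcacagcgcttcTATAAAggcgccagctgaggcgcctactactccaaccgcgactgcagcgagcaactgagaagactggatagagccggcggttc
Dusp1: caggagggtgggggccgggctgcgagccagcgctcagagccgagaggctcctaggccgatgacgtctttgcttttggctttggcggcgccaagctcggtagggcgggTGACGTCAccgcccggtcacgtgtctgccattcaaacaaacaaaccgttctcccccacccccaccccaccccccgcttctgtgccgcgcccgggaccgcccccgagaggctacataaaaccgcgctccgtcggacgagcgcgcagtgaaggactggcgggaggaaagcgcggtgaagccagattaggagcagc
Zfp36: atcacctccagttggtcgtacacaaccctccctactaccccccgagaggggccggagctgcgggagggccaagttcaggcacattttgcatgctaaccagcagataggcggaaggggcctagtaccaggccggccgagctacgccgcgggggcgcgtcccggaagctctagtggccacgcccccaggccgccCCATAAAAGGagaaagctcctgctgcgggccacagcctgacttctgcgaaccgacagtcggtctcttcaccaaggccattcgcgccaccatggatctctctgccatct
Hspa1b: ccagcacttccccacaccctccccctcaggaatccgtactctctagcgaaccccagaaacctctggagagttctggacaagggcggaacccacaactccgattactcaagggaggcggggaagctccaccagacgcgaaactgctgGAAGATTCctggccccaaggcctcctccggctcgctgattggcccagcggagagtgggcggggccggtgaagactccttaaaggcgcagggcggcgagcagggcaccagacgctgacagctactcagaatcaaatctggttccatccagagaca

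The RefSeq table matched 8 of the 10 members, all but Egr1 and Ier2. Searched on both strands, TGACG lay in 5 of these 8 windows (Fos, Fosb, Junb, Atf3 and Dusp1) and in 20.8% of 32851 mouse promoter windows of the same length. The full TGACGTCA, which contains TGACG on both strands, lay in Dusp1 alone of the 8 and in 1.79% of all windows. The CArG box lay in Zfp36 alone of the 8, against 1.63% of all windows. The letters GAANNTTC lay in Jun and Hspa1b, against 7.86% of all windows, and a heat shock element of 3 such units in none of the 8, against 0.603%. The AP-1 letters TGANTCA, to which Fos and Jun proteins bind, lay in none of the 8, against 7.81%. A match is a description of the letters and not of binding, and letters outside these windows were not searched.

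None of the 9 tested members passed the test between the groups (quasi-likelihood test of edgeR, adjusted p under 0.05 by the Benjamini-Hochberg method), where 0.357% of all tested genes were called. All 9 pointed lower in the labelled knockout, against 49.6% of all tested genes. The members were measured in the same libraries, so their directions are not independent of one another. Their median log2 fold change was -1.32, against 0.00 over all genes. At an unadjusted p under 0.05 stood Fos, Jun, Egr1, Ier2 and Zfp36, 5 of 9 members, against 8.44% of all tested genes in either direction and 3.42% in the lower one. DESeq2 called 1 member, Fos, where it called 0.977% of its tested genes. The groups overlapped for every member, while 0.73% of all tested genes lay without overlap on the lower side. Without labelled knockout library 1, Hspa1b alone did not overlap (2.6% of genes), without the 3 libraries high in the acute phase gene Saa1 Fos and Junb did not (2.75%), and without the third run of file numbers, described later, Fos, Egr1 and Junb did not (3.14%).

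A pair of control libraries set the upper end for every member. Control libraries 1 and 2 held the highest TPM of all 10 libraries for each of the 10 members, a pattern shared by 3.92% of all tested genes. On the log2 CPM scale (counts per library total after TMM scaling) it held for 8 of 9 tested members, against 7.22% of all tested genes, and Junb was the exception. Refitted without those 2 libraries, the members' median log2 fold change was -0.06, with 8 of 9 pointing lower. The pair was left out for its high values, so a rise of the members' fold changes was built into this refit. The same holds for each member below. The 8 remaining libraries still differed among themselves, and not in the same order for each member.

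**Figure D1:**
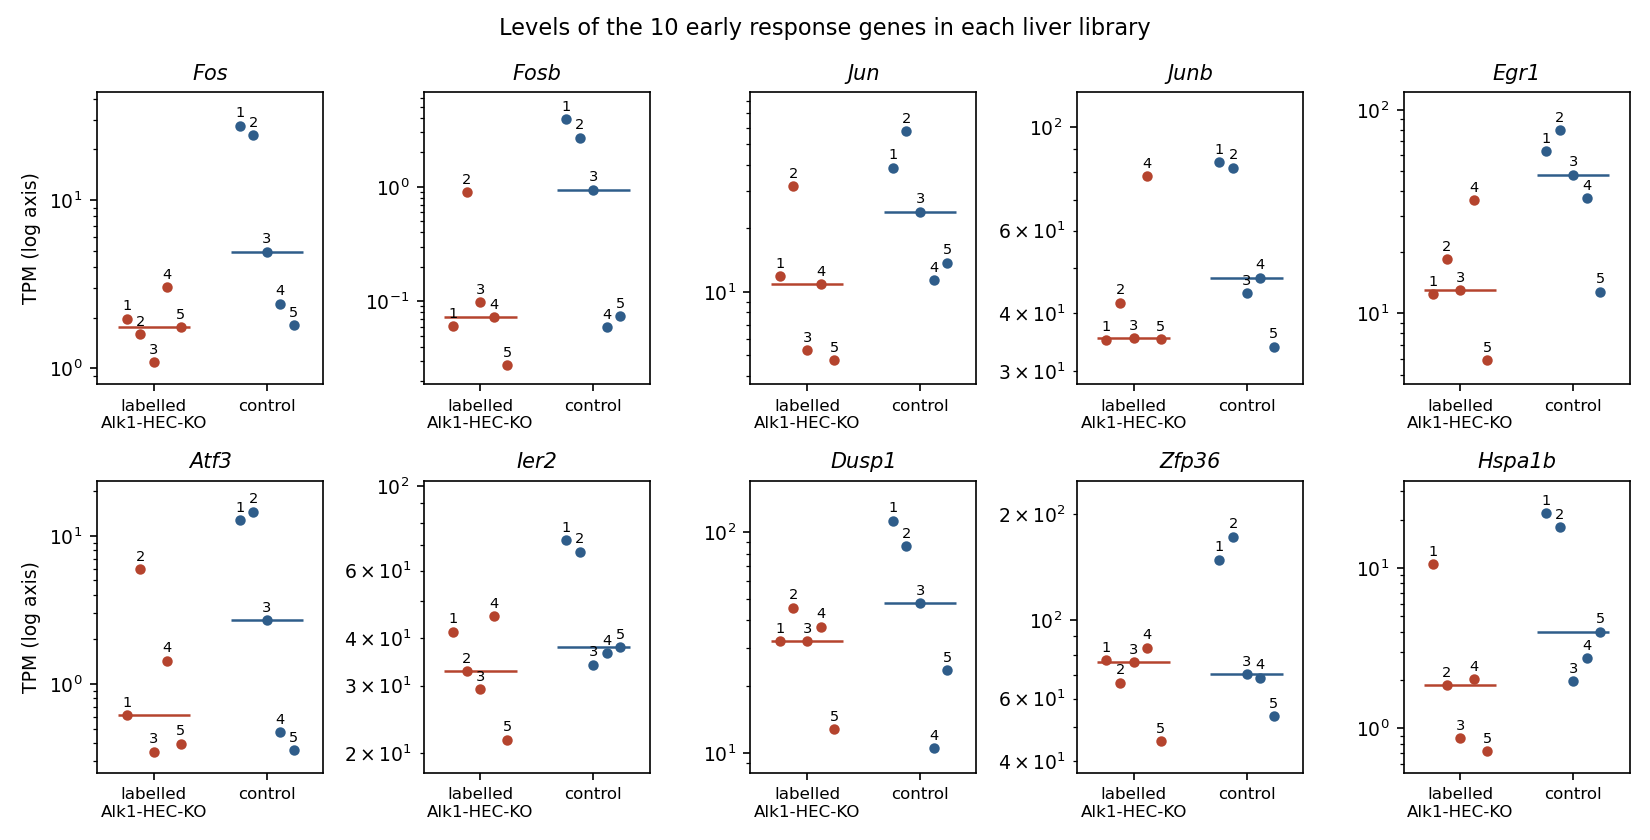
TPM of each member in every library on log axes, the 5 labelled Alk1-HEC-KO libraries left and the 5 control libraries right in each panel. Points carry the library number and lines mark the group median. Control libraries 1 and 2 are on top in all 10 panels, while labelled knockout library 2 stands above its group for Fosb, Jun and Atf3, library 4 for Junb and library 1 for Hspa1b.

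Fos (ENSMUSG00000021250.13, chr12:85473890-85477273, plus strand) encodes the partner of Jun in the AP-1 transcription factor, and its cAMP response element core letters are shown above. It had 1.97, 1.59, 1.09, 3.03 and 1.76 TPM in labelled knockout libraries 1 to 5, against 27.6, 24.2, 4.92, 2.42 and 1.80 TPM in control libraries 1 to 5. Controls 4 and 5 lay inside the range of the labelled knockout, control 3 above it, and controls 1 and 2 far above. The means were 1.89 ± 0.716 TPM in the labelled knockout and 12.2 ± 12.6 TPM in controls (SD, n = 5 each), so the control SD exceeded the control mean. Its log2 fold change was -2.89 (SE 0.83, edgeR, adjusted p = 0.331). Over 21 alternative fits the lowest adjusted p was 0.0228, under DESeq2, and no other passed. Without control libraries 1 and 2 it was -1.06 (SE 0.46, adjusted p = 0.901). The SD of log2 CPM was 0.60 in the labelled knockout and 1.86 in controls, where 0.761% of tested genes varied more.

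Fosb encodes a close relative of Fos and was the least abundant member. It had 0.0609, 0.903, 0.0983, 0.0730 and 0.0277 TPM in labelled knockout libraries 1 to 5, against 3.90, 2.70, 0.945, 0.0591 and 0.0745 TPM in controls 1 to 5. Library 2 of the labelled knockout thus stood beside control 3, and the other 6 libraries were at or below 0.0983 TPM. Its counts summed to 73 over the labelled knockout and 528 over controls, with at least 10 counts in 4 libraries. The means of 0.233 ± 0.375 TPM in the labelled knockout and 1.54 ± 1.70 TPM in controls did not pass an exact two-sided permutation test on TPM (p = 0.111, n = 5 each, smallest possible p 0.0079).

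Jun, which pairs with Fos in AP-1, showed a different middle order. It had 11.9, 31.6, 5.31, 10.9 and 4.76 TPM in labelled knockout libraries 1 to 5, against 38.7, 57.8, 24.0, 11.3 and 13.7 TPM in controls 1 to 5. Labelled knockout library 2 came next after controls 1 and 2, above control 3. The fit gave a log2 fold change of -1.32 (SE 0.57, edgeR, adjusted p = 0.583) and -0.64 without control libraries 1 and 2. Of the 31-base words of the Jun transcript, 6.39% also occur in its antisense neighbour Junos, which reached at most 1.62 TPM.

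Junb, an AP-1 subunit that often restrains Jun, varied least among the AP-1 members. It had 35.1, 42.1, 35.3, 78.6 and 35.1 TPM in labelled knockout libraries 1 to 5, against 84.2, 81.9, 44.1, 47.6 and 33.9 TPM in controls 1 to 5. Here labelled knockout library 4 came close to controls 1 and 2, and the others lay together. Its log2 fold change was -0.41 (SE 0.30, edgeR, adjusted p = 0.749), -0.72 without labelled knockout library 4, -0.23 without control 1 and -0.03 without controls 1 and 2. Junb overlaps Prdx2 on the opposite strand, which reached 140 TPM, and whether counting used strand is not given in the sources used here. Of the 31-base words of the longest coding Junb transcript, read on either strand, 0% also occur in another gene's transcripts.

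Egr1, a zinc finger factor and a classical target of the serum response factor, is induced by growth factors and by stress. It had 12.5, 18.5, 13.0, 35.9 and 5.87 TPM in labelled knockout libraries 1 to 5, against 62.7, 79.6, 48.0, 36.8 and 12.8 TPM in controls 1 to 5. In TPM controls 1 to 4 lay above all labelled knockout libraries, control 4 only just above labelled knockout 4, and control 5 lay among the lower values. In log2 CPM labelled knockout 4 lay above control 4 (0.547 against 0.478, each minus the gene's mean). The means were 17.2 ± 11.4 TPM in the labelled knockout and 48.0 ± 25.4 TPM in controls (SD, n = 5 each). The log2 fold change was -1.58 (SE 0.53, edgeR, adjusted p = 0.426) and -1.14 without controls 1 and 2 (SE 0.60).

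Atf3, a stress-induced repressor of the CREB family, had the widest spread of the tested members. It had 0.617, 5.94, 0.348, 1.44 and 0.394 TPM in labelled knockout libraries 1 to 5, against 12.8, 14.5, 2.69, 0.471 and 0.358 TPM in controls 1 to 5. Labelled knockout library 2 stood above control 3, while controls 4 and 5 were as low as the lowest labelled knockout libraries. The fit gave a log2 fold change of -2.13 (SE 1.18, edgeR, adjusted p = 0.686). It was -3.61 without labelled knockout library 2 and -0.01 without controls 1 and 2, neither of which passed.

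**Figure D2:**
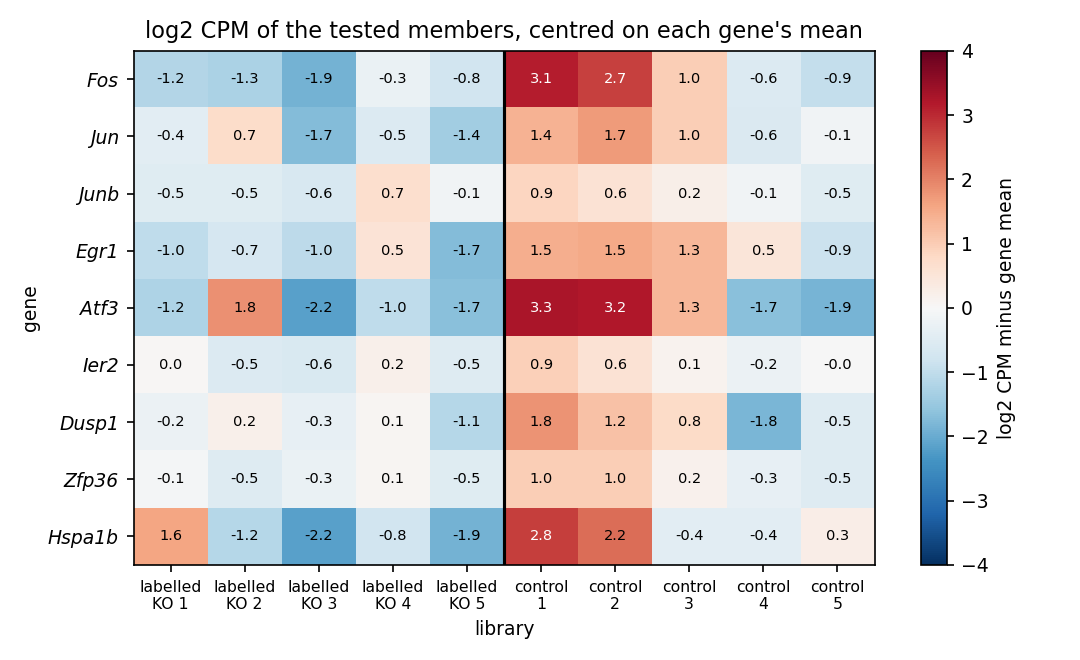
Log2 CPM of the 9 tested members minus each gene's mean over 10 libraries, with labelled Alk1-HEC-KO libraries left of the line and control libraries right of it. Red marks values above the mean and blue below, and the columns of control libraries 1 and 2 are red throughout, while labelled knockout library 2 is red for Jun and Atf3 but blue for Fos.

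Zfp36, the most abundant member, belongs to those that end the response. It encodes tristetraprolin, which binds AU-rich elements and speeds the decay of short-lived mRNAs. It had 77.0, 66.5, 76.0, 83.6 and 45.5 TPM in labelled knockout libraries 1 to 5, against 148.7, 172.6, 70.5, 68.8 and 53.5 TPM in controls 1 to 5. Its group median was higher in the labelled knockout, 76.0 TPM against 70.5 TPM, although its mean was lower, 69.7 ± 14.9 TPM against 102.8 ± 53.9 TPM in controls (SD, n = 5 each). The log2 fold change was -0.63 (SE 0.28, edgeR, adjusted p = 0.584) and -0.05 without controls 1 and 2.

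Dusp1 encodes a phosphatase that switches off the stress and growth kinases. It had 32.0, 45.5, 32.0, 37.3 and 12.8 TPM in labelled knockout libraries 1 to 5, against 112.8, 86.6, 47.5, 10.5 and 23.7 TPM in controls 1 to 5. The lowest and the highest library were both controls. Its log2 fold change was -0.96 (SE 0.58, edgeR, adjusted p = 0.699), -0.53 without control 1 and -0.06 without controls 1 and 2. Dusp1 overlaps Ergic1 on the opposite strand, which reached 37.3 TPM. Its longest coding transcript likewise shares 0% of its 31-base words with another gene's transcripts.

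Ier2, a nuclear protein of the immediate early class, had 41.5, 32.8, 29.3, 45.6 and 21.7 TPM in labelled knockout libraries 1 to 5, against 72.0, 67.2, 34.1, 36.5 and 37.8 TPM in controls 1 to 5. Controls 3 to 5 lay inside the range of the labelled knockout. Its log2 fold change was -0.60 (SE 0.23, edgeR, adjusted p = 0.514) and -0.23 without controls 1 and 2.

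Hspa1b (ENSMUSG00000090877.3, chr17:34956436-34959238, minus strand), the inducible HSP70 chaperone, followed an order of its own. It had 10.5, 1.86, 0.865, 2.03 and 0.721 TPM in labelled knockout libraries 1 to 5, against 21.9, 18.0, 1.97, 2.74 and 4.01 TPM in controls 1 to 5. Labelled knockout library 1 came next after controls 1 and 2, with Fos at 1.97 TPM in the same library. Control 3 was low, although its Fos came next after controls 1 and 2. The log2 fold change was -1.64 (SE 0.95, edgeR, adjusted p = 0.696), -2.89 without labelled knockout library 1, -1.02 without control 1 and 0.02 without controls 1 and 2. Hspa1b shares 67.7% of its 31-base words with its neighbour Hspa1a, whose promoter window holds the same GAAGATTC letters at the same distance from the start. Reads of this pair may be split between the copies, and Hspa1a read 0.80, 0.0544, 0, 0.227 and 0 TPM in the labelled knockout, against 1.56, 2.02, 0.405, 0.0862 and 0.335 TPM in controls. Summing the counts of both copies left the direction and the missed threshold as they were.

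**Figure D3:**
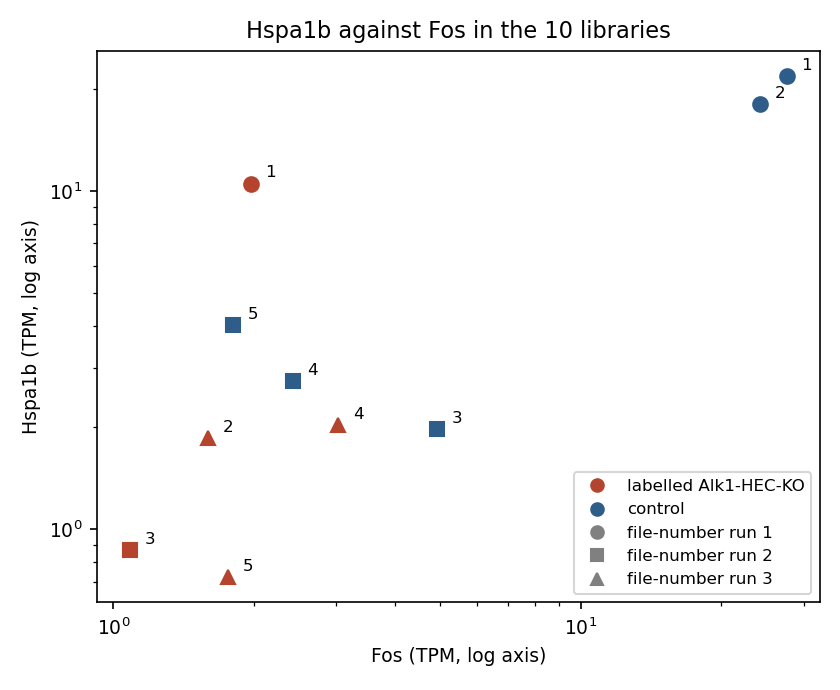
Hspa1b against Fos in TPM on log axes, 1 point per library, coloured by group, numbered by library and shaped by run of file numbers. Control libraries 1 and 2 are high on both axes, and labelled knockout library 1, at 1.97 TPM of Fos and 10.5 TPM of Hspa1b, is high on the vertical axis alone.

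By mean TPM over the 10 libraries the order was Zfp36 (86.3), Junb (51.8), Dusp1 (44.1), Ier2 (41.9), Egr1 (32.6), Jun (20.99), Fos (7.05), Hspa1b (6.47), Atf3 (3.96) and Fosb (0.884). Zfp36 exceeded Junb, Jun exceeded Fos, and Atf3 exceeded Fosb in 10 of 10 libraries. The neighbours Junb and Dusp1 kept their order in 6 libraries, Dusp1 and Ier2 in 5, and Fos and Hspa1b in 6, so these pairs did not differ beyond their spread. Ier2 exceeded Egr1 in 7 libraries, and Egr1 exceeded Jun and Hspa1b exceeded Atf3 in 8. Summed over the members, the level was 223, 247, 193, 298.5 and 129 TPM in labelled knockout libraries 1 to 5, against 585, 605, 279, 217 and 182 TPM in controls 1 to 5. Controls 3 to 5 lay inside the range of the labelled knockout. The SD of log2 CPM was larger in controls than in the labelled knockout for 9 of 9 tested members, as it was for 37.0% of all tested genes. It was nearly equal for Junb (0.5364 in controls against 0.5356), Jun (0.986 against 0.963) and Hspa1b (1.509 against 1.490).

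**Figure D4:**
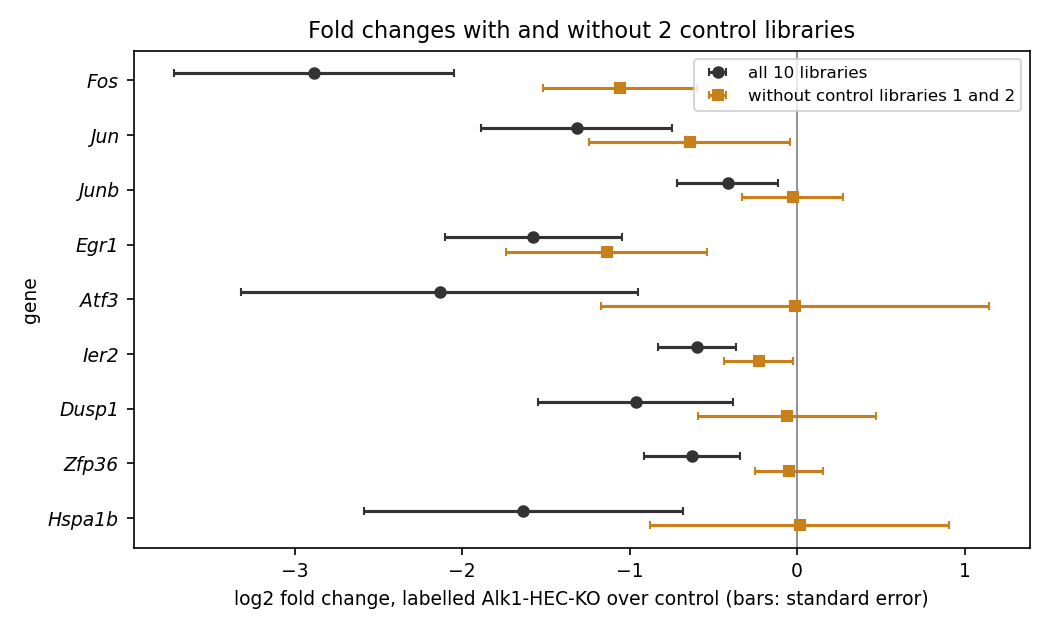
Log2 fold change of the 9 tested members, labelled Alk1-HEC-KO over control, with bars for the standard error. Circles use all 10 libraries and squares leave out control libraries 1 and 2, picked for their high values, which raises the values by construction. After that only Fos, Jun, Egr1 and Ier2 keep a distance from 0 larger than their standard error, and none passes the test.

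Split at their larger gaps, the numbers in the file names fall into 3 runs, whose meaning the labels do not give. Controls 1 and 2 and labelled knockout 1 form the first run, controls 3 to 5 and labelled knockout 3 the second, and the other 3 labelled knockout libraries the third, which has no control. Within the first run all 9 tested members were lower in the labelled knockout, Fos by a log2 difference of -4.10 and Hspa1b of -0.90, with 1 library against 2 and no test. Within the second run 8 of 9 were lower, Fos by -1.72 and Hspa1b by -1.97, while Zfp36 differed by -0.03 and Dusp1 by 0.19, with 1 library against 3. With the run as a covariate all 9 pointed lower and none was called. The third run has no control, so the group difference in that fit rests on labelled knockout libraries 1 and 3 alone. Atf3 moved to -3.55, Jun to -1.98 and Junb to -0.85, each over 1.5 times its value without the covariate, and Fos stood at -3.03 (edgeR, adjusted p = 0.717).

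Other genes of the response were taken from lists, and none of their tested members was called. Of 14 tested transcription factors of the immediate early class, 9 pointed lower (7 in both fits on log2 TPM). Their median log2 fold change was -0.16, and controls 1 and 2 were highest for 2 of them. Those were Nr4a1 and Nr4a2, orphan nuclear receptors. Nr4a1 had 2.30, 6.29, 0.829, 5.13 and 0.839 TPM in the labelled knockout, against 45.9, 45.1, 14.8, 0.812 and 1.13 TPM in controls. In TPM controls 1, 2 and 3 came highest in that order, as for Fos. In log2 CPM control 2 was highest for Nr4a1 and control 1 for Fos. The log2 fold change of Nr4a1 was -3.16 (SE 1.22, edgeR, adjusted p = 0.534). Klf4 pointed the other way (1.18, SE 0.42, edgeR, adjusted p = 0.419), and the abundant Cebpb, a liver factor of the acute phase, had -0.29 (SE 0.22). Fosl1, Egr4 and Npas4 were listed at 0 in every library.

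Of 29 tested effectors and feedback genes, 20 pointed lower (17 in both fits on log2 TPM), with a median of -0.15, and controls 1 and 2 were highest for 5. Dusp6, the phosphatase of the ERK kinases, had 16.1, 12.1, 8.23, 10.5 and 4.603 TPM in the labelled knockout, against 41.7, 48.3, 17.1, 17.1 and 12.6 TPM in controls. Only control 5 reached into the range of the labelled knockout (-1.55, SE 0.40, edgeR, adjusted p = 0.259). Ccn1, a secreted matrix protein, had 4.36, 2.61, 5.26, 3.66 and 2.36 TPM in the labelled knockout, against 26.4, 26.5, 14.0, 2.74 and 5.70 TPM in controls (-2.13, SE 0.59, edgeR, adjusted p = 0.295). Ier5, a relative of Ier2, was higher in every labelled knockout library than in any control (1.07, SE 0.30, edgeR, adjusted p = 0.262), where 1.68% of tested genes lay without overlap in either direction. Errfi1, a feedback inhibitor of the EGF receptor and the most abundant of the list, had -0.39 (SE 0.25). Control 2 held the highest log2 CPM for 9 of the 29, against 16.8% of all tested genes. Labelled knockout library 2 held it for 7 of the 29, against 11.3% of all tested genes. Among them were Gadd45b and Gadd45g, growth arrest genes, at 7.62 and 61.3 TPM in that library and at most 2.32 and 27.4 TPM elsewhere, both named after their values were seen.

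Of 21 tested heat shock response genes, 20 pointed lower, with a median of -0.29. The highest 3 libraries were labelled knockout 1 and controls 1 and 2 for 8 of the 21 and for Hspa1b, against 3.15% of all tested genes. The 8 were Hspa1a, Hspa8, Hsph1, Dnajb1, Dnaja1, Dnajb4, Bag3 and Hsp90aa1, which encode cytosolic chaperones and co-chaperones. No tested member of the other 2 lists above showed that order. Hsph1, an HSP70 exchange factor named after its values were seen, had 25.3 TPM in labelled knockout library 1 and 5.90 to 9.67 TPM in libraries 2 to 5, against 24.4 and 30.5 TPM in controls 1 and 2 and 6.07 to 12.7 TPM in controls 3 to 5. Hspa8, the constitutive HSP70 and the most abundant of the list, had a log2 fold change of -0.44 (SE 0.34). Hspb1, a small heat shock protein, had the smallest p of the list, at 19.8 ± 5.15 TPM in the labelled knockout and 31.3 ± 5.74 TPM in controls (SD, n = 5 each; log2 fold change -0.75, SE 0.17, edgeR, adjusted p = 0.107). It was the only tested gene of the list whose groups did not overlap in log2 CPM, with every labelled knockout library below every control on that scale, as for 0.73% of all tested genes. In TPM its groups did overlap, with labelled knockout libraries 1 and 3 at 24.7 and 24.8 TPM and control 3 at 23.8 TPM. Dnajb4, an HSP40 co-chaperone, had -0.57 (SE 0.30) and Hsf2, a heat shock factor, -0.41 (SE 0.18).

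**Figure D5:**
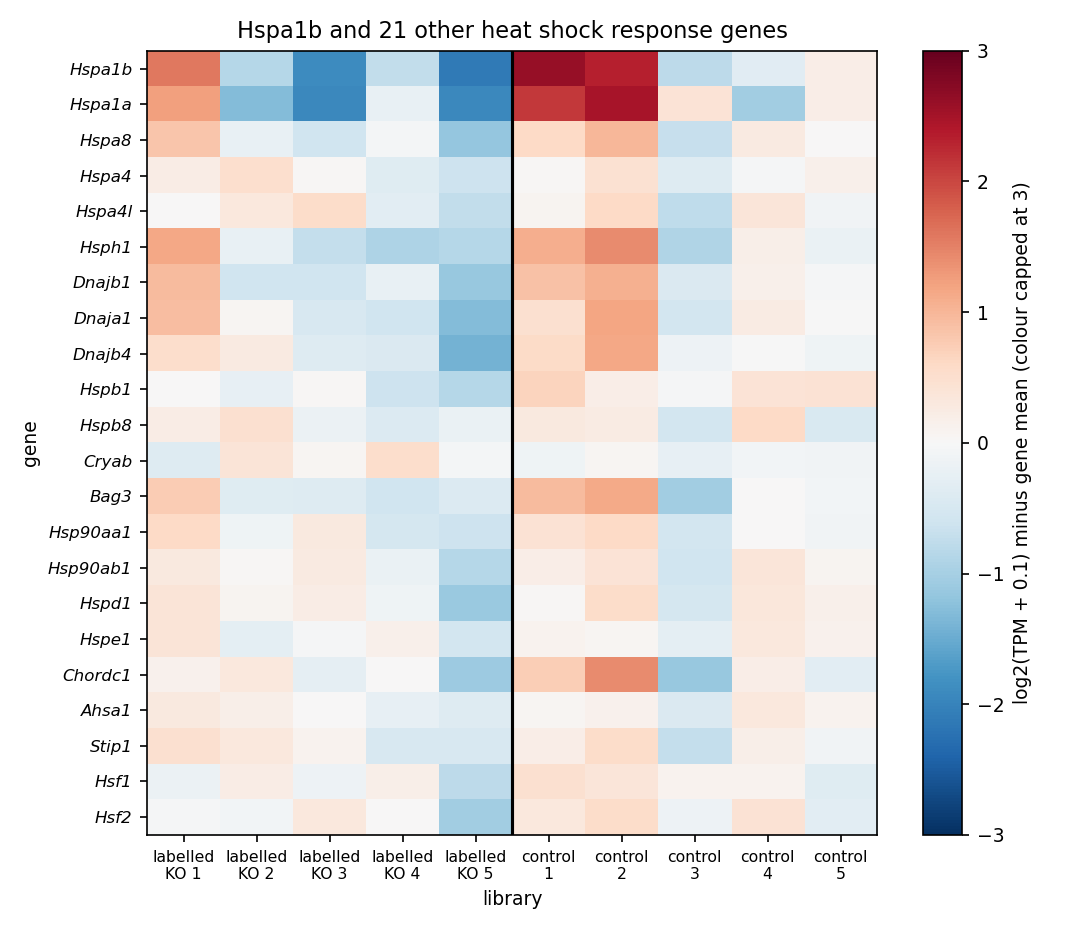
Log2(TPM + 0.1) of Hspa1b and 21 other heat shock response genes minus each gene's mean, with labelled Alk1-HEC-KO libraries left of the line and control libraries right of it. Red marks values above the mean, and labelled knockout library 1 is red beside controls 1 and 2 for Hspa1b, Hspa1a, Hspa8, Hsph1, Dnajb1, Dnaja1 and Bag3.

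Of 20 tested kinases and factors upstream of the response, 16 pointed lower with a median of -0.07. Controls 1 and 2 together were the highest 2 libraries in TPM for none. Control 2 by itself held the highest log2 CPM for 11 of the 20, against 16.8% of all tested genes. The lower direction turned with the scaling. Scaled by library totals only, 9 of 20 pointed lower with a median of 0.013, and in both fits on log2 TPM 9 of 20 did, with medians of 0.025 and 0.030. Elk3, a partner of the serum response factor, pointed higher (0.67, SE 0.21, edgeR, adjusted p = 0.331). Creb1 had -0.41 (SE 0.20), Map2k1 -0.22 (SE 0.12) and Map2k2, the most abundant, -0.03.

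The genes with profiles nearest to Fos were found by the root mean square difference of centred log2 CPM over the 10 libraries. They were Ccn1 (0.79), Nr4a2 (0.86), Dusp6 (0.89), Btg2 (1.03) and Fmod (1.04), where the median tested gene lay at 1.66 and the nearest member, Egr1, at 0.91. Nearest to Hspa1b were Plin4 (0.52), Zfp9 (0.76), Lipg (0.77), Bcl6 (0.79) and P4ha1 (0.82), where the median gene lay at 1.63 and Fos at 1.14. Bcl6, a transcriptional repressor, had 18.9 TPM in labelled knockout library 1 and 1.47 to 3.97 TPM in libraries 2 to 5, against 17.8 and 24.5 TPM in controls 1 and 2 and 2.64 to 4.59 TPM in controls 3 to 5.

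Controls 1 and 2 were the highest 2 libraries for 1 of 10 stellate markers and for no tested marker of the other 5 cell type lists. Kupffer cell markers pointed higher in the labelled knockout for 10 of 10, with summed levels of 209 to 409 TPM in the labelled knockout and 130 to 207 TPM in controls, of which 147 and 160 TPM were in controls 1 and 2. Endothelial markers pointed higher for 9 of 10, at 54.8 to 103 TPM in the labelled knockout and 37.2 to 73.2 TPM in controls, with 72.8 and 73.2 TPM in controls 1 and 2, the highest 2 controls. Neutrophil and monocyte markers summed to 4.73 to 25.4 TPM in the labelled knockout and 1.96 to 6.21 TPM in controls, and controls 1 and 2 were the lowest 2 libraries. The sums of stellate markers were 83.2 to 240 TPM in the labelled knockout and 108 to 176 TPM in controls, and those of erythroid markers 1782 to 3983 TPM in the labelled knockout and 860 to 2397 TPM in controls. Acute phase genes pointed higher for 14 of 16, with a median of 0.66 and sums of 11393 to 66942 TPM in the labelled knockout and 9580 to 49235 TPM in controls, of which 9580 and 11221 TPM were in controls 1 and 2. No marker of any list was called or at 0 in every library. Mitochondrial transcripts took 7.59% to 12.0% of counts in the labelled knockout and 5.82% to 16.6% in controls, with 12.8% and 9.44% in controls 1 and 2. Their part in the members' levels was not tested.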

How the data were processed

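Each of the 10 libraries had estimated counts per gene and TPM per gene, both deposited by the authors over 55385 versioned Ensembl IDs. Per the submitters' processing notes, the tools were kallisto 0.4.6 and Trim Galore 0.6.4 and the build was GRCm38.p6; these notes do not say how transcripts were summed to genes. The TPM deposited by the authors gave levels. Tests used the authors' estimated counts, rounded to whole numbers, by which no total changed by more than 0.0008%. A GRCm38 annotation gave symbols for 55144 IDs. Genes were kept with filterByExpr, scaled by TMM and fitted in edgeR 4.0.16 (R 4.3.3) with its robust quasi-likelihood test and the group as the only term, as labelled knockout over control. P-values were adjusted over 12872 genes by Benjamini-Hochberg, with a threshold of 0.05. The biological coefficient of variation was 0.272. Fosb, below the filter, had an exact permutation test on TPM. Alternatives used DESeq2 1.42.0, limma 3.58.1 on log2(TPM + 1) and log2(TPM + 0.1), other scalings and filters, left-out libraries, and the run of file numbers. The named genes were all members, the targeted gene, from each list the 3 with the smallest p and the most abundant, and the 5 nearest to Fos and to Hspa1b. Members, lists and tests were chosen with earlier results of these data known. The pair of libraries with the lowest mean chi-square of counts per gene, controls 1 and 2, had 60.6, well beyond counting noise, so no library was counted as a duplicate.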

Additional observations from a re-analysis of the deposited data

Results flagged for a closer look

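The TPM of 20 groups of 5 libraries were examined (10 members, each in both groups). In 5 of the 20, 1 library lay apart from the other 4 by more than Dixon's critical value of 0.71 for the gap over the range. For normally distributed values chance sets apart about 1 group in 20. The TPM were not put on a log scale for this, where high values stretch less, so the 5 cannot be set against that rate. All 5 were in the labelled knockout and on the high side, and the members share these libraries. Labelled knockout library 2 had 0.903 TPM of Fosb, where the next of its group had 0.0983 TPM. The same library had 31.6 TPM of Jun, next to 11.9 TPM, and 5.94 TPM of Atf3, next to 1.44 TPM. Labelled knockout library 4 had 78.6 TPM of Junb, next to 42.1 TPM, and labelled knockout library 1 had 10.5 TPM of Hspa1b, next to 2.03 TPM. In controls, where libraries 1 and 2 were high together, no single library lay apart for any member.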

How the results depend on the processing

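No tested member was called in any alternative except Fos under DESeq2, which made the count 1 (log2 fold change -2.89, adjusted p = 0.0228). The median of the members stayed below 0 in all 21 alternatives and moved by more than the spread between libraries (0.781) in 1, without control libraries 1 and 2 (-0.060), where Hspa1b also turned to 0.016. That pair was left out for its high values, so a rise was built into the refit. Leaving out 1 library at a time gave 0 calls, 9 to 10 members pointing lower, a median of -1.64 to -1.002 and 0 to 1 members without overlap. Hspa1b was the 1 without labelled knockout library 1 (2.6% of genes lay lower without overlap there). Without the 3 libraries with high Saa1 (control 4, labelled knockout 4 and 5) 2 members did not overlap, Fos and Junb (2.75% of genes), and without the third run of file numbers 3, Fos, Egr1 and Junb (3.14%). The cause was not tested. With the replicate number as a block no member was called and the median was -1.34. The deviations of same-numbered libraries had correlations of -0.098 to 0.251, with the own number as best partner for 2 of 5 numbers. So few correlations cannot decide whether the numbers mark pairs. Over all genes, 46 were called, against 119 with no filter, 159 under DESeq2, 40 with the block, 5 with the run as covariate, 17 without controls 1 and 2, 18 without the third run and 83 without labelled knockout library 1. In the other lists, Ier5 was called with no filter, Dusp6 under DESeq2 and with the block, Ccn1 under DESeq2 and without control 4, and Hspb1 with no filter, under DESeq2 and without labelled knockout library 1. Without controls 1 and 2 the medians were 0.09 for the transcription factors, 0.19 for effectors and feedback genes and -0.07 for heat shock genes. Fosb gave -2.95 with no filter and -2.99 under DESeq2, and -4.46 (without the third run) to -2.69 in the 8 fits with libraries left out in which it passed the filter, none called. Depth limited Fosb and Hspa1a, which reached 10 counts in 4 and 6 libraries.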
